A study of Mus musculus with 12 samples.

Results

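The 10 genes described here, Adgre1, Cd68, Clec4f, Marco, Csf1r, C1qa, C1qb, Mpeg1, Cd14 and Ccl2, are genes of liver macrophages and Kupffer cells, taken by name from the 22170 gene names of the deposited table. All 10 were found. Adgre1 is listed under its older symbol Emr1 and was matched by its Ensembl identifier. The level of a gene is the sum over its transcripts in FPKM, which corrects fragment numbers for transcript length and library size. A gene was tested when its mean was 0.5 FPKM or more, which all 10 genes passed, as did 11566 genes in all. The mice were male C57BL/6J mice, 21 weeks of age, that had been fed for 16 weeks a normal diet (ND), a high-fat diet (HFD), the HFD with 1.5% by weight of an ethanol extract of chrysanthemum leaves (CLE), or the HFD with 0.003% by weight of luteolin (LU), a flavonoid that occurs in the extract. The CLE and LU mice therefore shared the HFD with the HFD mice, and ND was the group without it. Livers of 3 mice were sequenced in each of the 4 groups, and the methods call them representative samples of larger groups.

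Kupffer cells are the resident macrophages of the liver. They line the sinusoids, take up particles, lipoproteins and aged red blood cells from portal blood, and depend on the CSF1 receptor. Feeding a diet rich in fat is known to bring monocytes into the liver, which can become macrophages beside the resident cells. In whole liver, more macrophages and more RNA of a gene in each macrophage cannot be told apart.

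Measured per length, Clec4f was the most abundant of the 10 genes, with a mean of 46.4 FPKM over the 12 livers, and it was above C1qb (32.4 FPKM) in 12 of 12 livers. Mpeg1 (27.5 FPKM) and C1qa (22.8 FPKM) followed. C1qb was above Mpeg1 in 8 livers and Mpeg1 above C1qa in 9, so these neighbours were not separated. Csf1r (11.8 FPKM) was below C1qa and above Cd68 (7.68 FPKM) in 12 of 12 livers. Marco (5.38 FPKM), Adgre1 (4.46 FPKM), Ccl2 (2.82 FPKM) and Cd14 (1.97 FPKM) were the lowest. Marco exceeded Adgre1 in 6 of 12 livers, and Ccl2 exceeded Cd14 in 8. Of the markers of the labelled tissue, the hepatocyte list of 10 genes summed to between 17056 and 23385 FPKM in 11 livers, in which albumin was listed at 0, and to 40205 FPKM in LU mouse 3, in which albumin had a value.

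**Figure D1:**
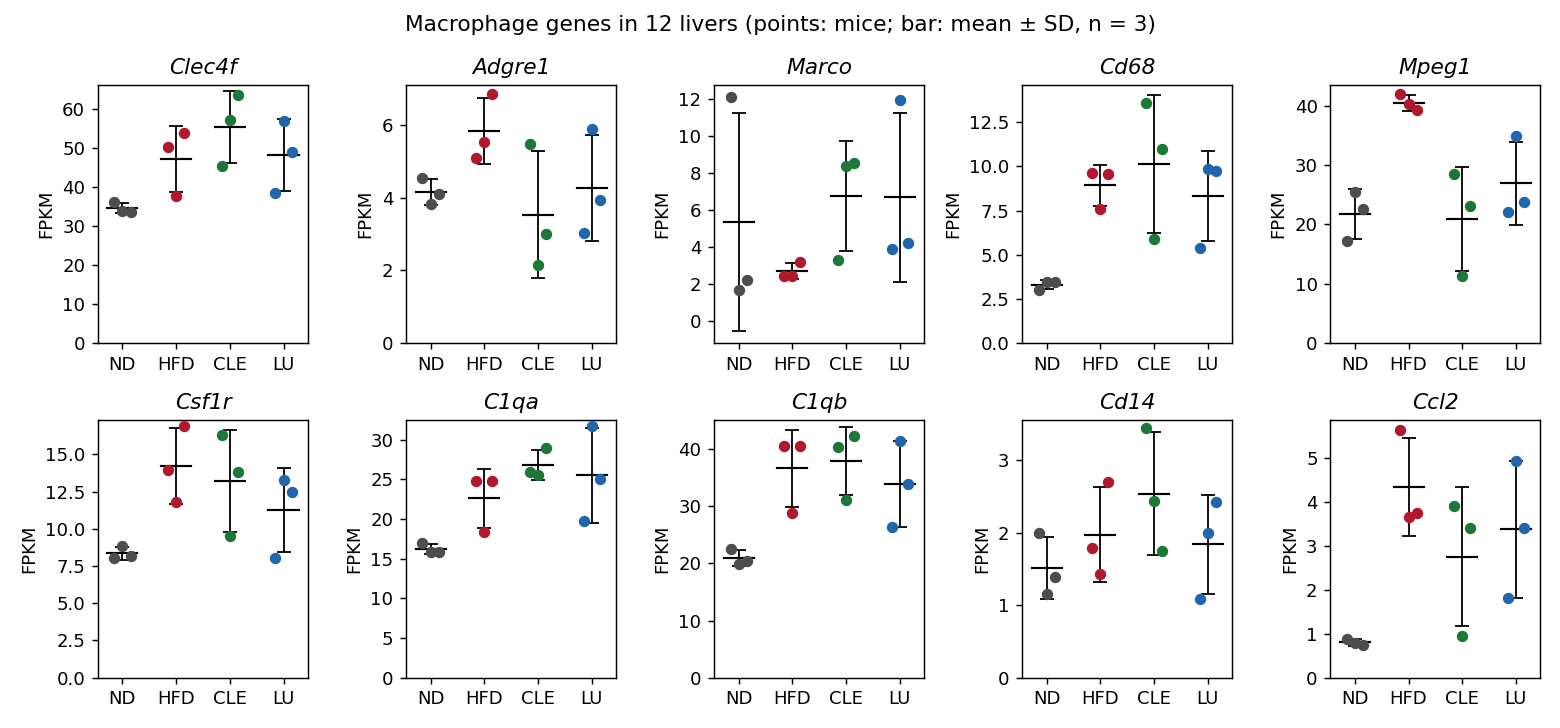
Level of each of the 10 genes in FPKM (linear axis) in every liver, by group. Points are mice, and the bars show mean ± SD (n = 3 per group). The 3 HFD livers lie above the 3 ND livers for all genes except Marco and Cd14, and the CLE and LU livers are spread more widely than the ND livers for Cd68, Csf1r and Ccl2.

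Of the 10 genes, 5 rose in HFD livers against ND livers and 0 fell. They were the chemokine gene Ccl2, the lysosomal glycoprotein gene Cd68, the complement gene C1qb, the growth factor receptor gene Csf1r and the pore-forming protein gene Mpeg1. Their group means were between 1.70-fold and 5.40-fold higher. Across all tested genes 12.1% passed the same test (limma on log2(FPKM + 1), adjusted p below 0.05) in this comparison, and 9.99% passed as higher. At an unadjusted p below 0.05, 7 of the 10 passed, as did 27.2% of all tested genes. The median log2 fold change of the 10 genes was 0.57, beside 0.11 for all tested genes. Without overlap between the groups, 8 of the 10 genes (all but Marco and Cd14) lay above ND, as did 29.1% of all tested genes. The count of calls rested on the scaling. With median-of-ratios scaling, which moved the median of all genes to -0.01, and with quantile normalization, 3 genes passed (Ccl2, Cd68 and C1qb), and with a correction for GC content 2 passed (Ccl2 and Cd68). The median of the 10 genes was 0.42 with median-of-ratios scaling. Over all genes, 1156 were higher and 244 lower in HFD with the values as deposited, and 620 and 504 with that scaling. Without HFD mouse 12 or HFD mouse 18 it was 2, and without ND mouse 2, ND mouse 3, ND mouse 4 or CLE mouse 11 it was 3.

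Ccl2 encodes the chemokine that draws monocytes through the receptor CCR2. It lies on chromosome 11, positions 82035571 to 82037453 of GRCm38. It was at 0.88, 0.80 and 0.73 FPKM in ND mice 2, 3 and 4 and at 5.62, 3.65 and 3.75 FPKM in HFD mice 12, 15 and 18. The CLE livers (mice 2, 4 and 11) held 3.90, 0.95 and 3.41 FPKM, and the LU livers (mice 2, 3 and 8) held 1.80, 4.92 and 3.40 FPKM. Every ND liver was below 1 FPKM, and so was CLE mouse 4, whose level was close to the ND range. Ccl2 was higher by 1.55 ± 0.32 (log2 fold change ± SE, adjusted p = 0.00846) in HFD livers, and in the 22 alternative settings the call stayed, with a highest adjusted p of 0.0415. Against ND it was also higher in CLE livers (0.95 ± 0.32, adjusted p = 0.0434) and in LU livers (1.21 ± 0.32, adjusted p = 0.0273). The CLE call was lost in 13 of 23 settings and the LU call in 8 of 23.

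Cd68 encodes a lysosomal and endosomal membrane protein used as a general macrophage marker. It lies on the minus strand of chromosome 11, positions 69664213 to 69666153. The ND livers held 2.98, 3.46 and 3.47 FPKM and the HFD livers 9.64, 7.59 and 9.59 FPKM. The CLE livers held 13.6, 5.87 and 11 FPKM, and the LU livers 5.36, 9.86 and 9.77 FPKM. All 9 livers of mice on the HFD, with or without an additive, lay above the 3 ND livers. Of all tested genes, 29.1% lay above ND without overlap in HFD, 32.2% in CLE and 29.4% in LU. Cd68 was higher than in ND by 1.2 ± 0.25 in HFD (adjusted p = 0.0096), by 1.31 ± 0.25 in CLE (adjusted p = 0.00553) and by 1.08 ± 0.25 in LU (adjusted p = 0.0186). The HFD and CLE calls held in each of 23 and 24 alternative settings, and the LU call was lost in 5 of 24.

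Csf1r encodes the receptor for CSF1 and interleukin 34 that macrophages need to survive. It is on chromosome 18, positions 61100598 to 61132149. ND livers held 8.06, 8.84 and 8.16 FPKM and HFD livers 13.9, 11.8 and 16.9 FPKM. CLE livers held 16.3, 9.53 and 13.8 FPKM, and LU livers 8.05, 13.3 and 12.5 FPKM. LU mouse 2 was level with the ND livers, and the other livers of mice on the HFD were above them. Csf1r was higher in HFD livers by 0.69 ± 0.20 (adjusted p = 0.0421), a call that was lost in 12 of 23 settings. Against ND, the difference was 0.57 ± 0.20 in CLE (adjusted p = 0.0511) and 0.36 ± 0.20 in LU (adjusted p = 0.217).

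C1qa and C1qb encode chains A and B of C1q, the recognition unit of the classical complement pathway, which in liver comes largely from macrophages. The genes lie close together on the minus strand of chromosome 4, on either side of C1qc, the gene for chain C, C1qa at positions 136895917 to 136898803 and C1qb at 136880129 to 136886187, and each has a single transcript in the table. C1qa was at 17.0, 15.8 and 15.8 FPKM in ND, 24.7, 18.3 and 24.8 in HFD, 25.9, 25.6 and 29.0 in CLE, and 19.8, 31.7 and 25.0 in LU. C1qb was at 22.6, 19.8 and 20.4 FPKM in ND, 40.6, 28.9 and 40.5 in HFD, 40.3, 31.1 and 42.4 in CLE, and 26.4, 41.4 and 34.0 in LU. For both chains every liver on the HFD, with or without an additive, was above every ND liver. Such a gap from ND was common, at 29.1% of all tested genes in HFD, 32.2% in CLE and 29.4% in LU. C1qb was higher in HFD (0.77 ± 0.18, adjusted p = 0.0149), in CLE (0.82 ± 0.18, adjusted p = 0.0083) and in LU (0.65 ± 0.18, adjusted p = 0.03). C1qa was higher in CLE (0.69 ± 0.16, adjusted p = 0.0101) and in LU (0.60 ± 0.16, adjusted p = 0.0273), and gave 0.45 ± 0.16 in HFD (adjusted p = 0.0869). For C1qb the HFD call was lost in 3 of 23 settings, the CLE call in 2 of 24 and the LU call in 10 of 24. For C1qa the CLE call was lost in 2 of 24 and the LU call in 9 of 24. The GC correction was among these settings for both chains.

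The ratio of C1qb to C1qa was higher in each HFD liver than in each ND liver. It was 1.33, 1.25 and 1.29 in ND livers and 1.64, 1.58 and 1.63 in HFD livers, or 1.29 ± 0.039 against 1.62 ± 0.036 (SD, n = 3). In LU livers it was 1.34, 1.31 and 1.36, all below the HFD livers. In CLE livers it was 1.56, 1.22 and 1.46. The CLE livers were spread from below the lowest ND liver to just below the lowest HFD liver. The ratio was picked after its values were seen, and it was not tested.

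**Figure D2:**
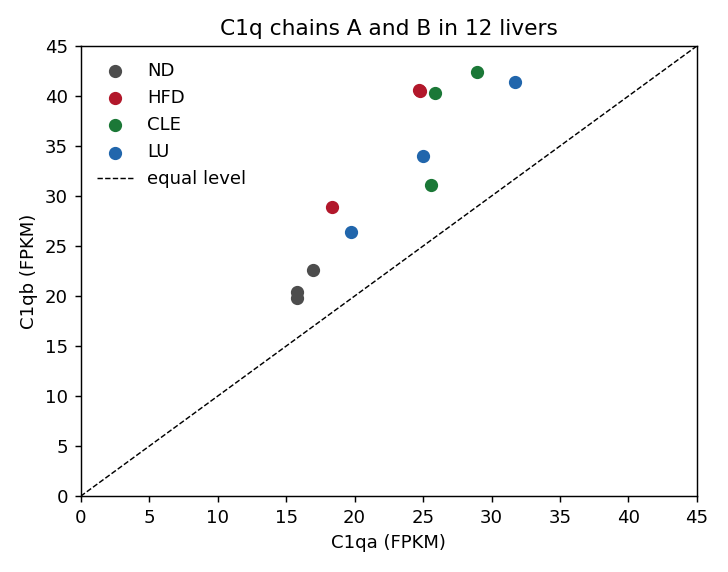
C1qb against C1qa in FPKM (linear axes), 1 point per liver, with a dashed line at equal level. All 12 livers lie above the line, and the 3 HFD livers (2 of the points coincide) have ratios of 1.58 to 1.64, against 1.31 to 1.36 in the LU livers.

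Mpeg1 encodes perforin-2, a pore-forming protein of phagocytes. It is on chromosome 19, positions 12460779 to 12465283. It was at 17.2, 25.4 and 22.5 FPKM in ND and at 41.9, 40.2 and 39.3 FPKM in HFD. It was at 28.5, 11.3 and 23.0 FPKM in CLE and at 22.0, 34.8 and 23.8 FPKM in LU. The 3 HFD livers were above every other liver, and the lowest value was in CLE mouse 4. Mpeg1 was higher in HFD than in ND by 0.89 ± 0.27 (adjusted p = 0.0486), a call lost in 15 of 23 settings. It was the 1 gene of the 10 that was called between CLE and HFD, at a log2 fold change of -1.01 ± 0.27 (adjusted p = 0.0451), where 6.03% of all tested genes passed. The call was lost in 15 of 23 settings, with a highest adjusted p of 0.154. Of the settings with 1 mouse left out, it stayed in those without CLE mouse 2 and without LU mouse 3 only. The difference was negative in each setting, from -1.27 to -0.64, and smallest without CLE mouse 4. The sum of Mpeg1 comes from its known transcript and from 1 assembled transcript, which held between 25.5% and 47.9% of the level by liver.

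The sequences before the starts of 3 of the genes that rose in HFD livers are given. Over the 12 livers Cd68 and C1qb moved together (Pearson r = 0.944). Mpeg1 followed them less closely (0.488 with Cd68 and 0.412 with C1qb). The sequences are the 250 bases upstream of the RefSeq start on GRCm38.p6, in the direction of the gene. Capitals mark GAGGAA or its reverse complement TTCCTC, the core of the motif bound by PU.1, the factor that directs macrophage genes. The Cd68 window is chr11:69666171-69666420 (minus strand), the C1qb window chr4:136886201-136886450 (minus strand) and the Mpeg1 window chr19:12460520-12460769 (plus strand).
Cd68: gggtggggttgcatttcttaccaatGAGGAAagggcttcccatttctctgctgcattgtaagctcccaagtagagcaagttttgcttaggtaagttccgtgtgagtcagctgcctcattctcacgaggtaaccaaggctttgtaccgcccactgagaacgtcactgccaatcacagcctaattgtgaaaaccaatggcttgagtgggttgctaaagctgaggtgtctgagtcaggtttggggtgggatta
C1qb: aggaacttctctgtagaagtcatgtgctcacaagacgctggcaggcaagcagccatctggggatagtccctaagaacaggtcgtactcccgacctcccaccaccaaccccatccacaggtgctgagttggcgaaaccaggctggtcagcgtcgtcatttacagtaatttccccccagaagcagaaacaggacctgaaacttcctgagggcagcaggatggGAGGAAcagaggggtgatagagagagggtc
Mpeg1: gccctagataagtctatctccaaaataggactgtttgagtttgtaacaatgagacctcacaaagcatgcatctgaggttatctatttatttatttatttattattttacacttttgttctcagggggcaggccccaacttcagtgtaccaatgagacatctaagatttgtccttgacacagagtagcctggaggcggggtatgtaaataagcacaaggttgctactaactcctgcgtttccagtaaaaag
Cd68 holds the word 225 bases before the start and C1qb 30 bases before it, and the Mpeg1 window has no match. The assembled Mpeg1 transcript starts at position 12460558, inside the Mpeg1 window. Windows of 5 members were counted (these and Clec4f and Marco), and 3 of the 5 hold a match. Marco holds a match 146 bases before its start, and its correlation was 0.056 with Cd68 and 0.268 with C1qb. Clec4f has no match, and its correlation was 0.739 with Cd68 and 0.875 with C1qb. Moving together thus did not go with a match among these genes. The other members, Csf1r and Cd14 among them, were not counted. Of 32851 promoter windows 23.3% hold a match, but the 5 are a selection, so the shares are not a like comparison. A match describes these letters only. Spi1, the gene for PU.1, was at 2.38 ± 0.451 FPKM in ND and 5.35 ± 0.660 FPKM in HFD (SD, n = 3), and was higher by 0.91 ± 0.19 (adjusted p = 0.00763). It was at 5.03 ± 0.978 FPKM in CLE and 4.28 ± 1.28 FPKM in LU. Spi1 is itself one of the general macrophage and myeloid genes counted below. A link between its level and the genes with a match was not tested.

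Clec4f encodes a C-type lectin that among mouse cells marks Kupffer cells. It lies on the minus strand of chromosome 6, positions 83644542 to 83656187. Its summed level was 36.2, 34.0 and 33.7 FPKM in ND, 50.4, 37.7 and 53.9 in HFD, 45.5, 57.3 and 63.7 in CLE, and 38.5, 57.0 and 49.1 in LU. The summed level was above ND in every liver of the other groups. That was also so for 29.1% of all tested genes in HFD, 32.2% in CLE and 29.4% in LU. The summed level of Clec4f was tested against ND. It was higher in CLE (0.65 ± 0.17, adjusted p = 0.0163), and gave 0.42 ± 0.17 in HFD (adjusted p = 0.123) and 0.45 ± 0.17 in LU (adjusted p = 0.0852). The CLE call was lost in 8 of 24 settings, with a highest adjusted p of 0.822.

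The Clec4f sum was made up of several transcripts. Its known coding transcript was at 19.9, 26.3 and 24.0 FPKM in ND, 34.2, 28.5 and 40.7 in HFD, 28.8, 15.8 and 34.5 in CLE, and 13.3, 27.6 and 26.9 in LU. As a share of the Clec4f sum this was 67.7% ± 11.6 in ND and 73.0% ± 4.43 in HFD, and 48.3% ± 18.6 in CLE and 45.9% ± 10.4 in LU (SD, n = 3). The groups overlapped in this share, with 54.8% in ND mouse 2 and 63.3% in CLE mouse 2. A known transcript annotated as non-coding held 10.8, 1.76 and 3.31 FPKM in ND, 9.44, 5.23 and 5.57 in HFD, 4.24, 15.7 and 15.4 in CLE, and 11.4, 12.8 and 11.4 in LU. ND mouse 2 was near the LU livers in it, and CLE mouse 2 was below every HFD liver. The 5 assembled transcripts together held between 10.8 and 25.8 FPKM in the 6 CLE and LU livers and between 4.02 and 7.58 FPKM in the 6 ND and HFD livers, with no overlap. These 6 CLE and LU libraries are also those whose levels rose with GC content, given further on, and its part in the split was not tested. The transcripts share fragments, so the split between them is an estimate. With the transcript of highest mean in place of the sum, the difference between CLE and ND was 0.11 (adjusted p = 0.822), and the call of a higher level in CLE livers was lost. The difference from HFD then became -0.43 in CLE livers (adjusted p = 0.378) and -0.64 in LU livers (adjusted p = 0.258).

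**Figure D3:**
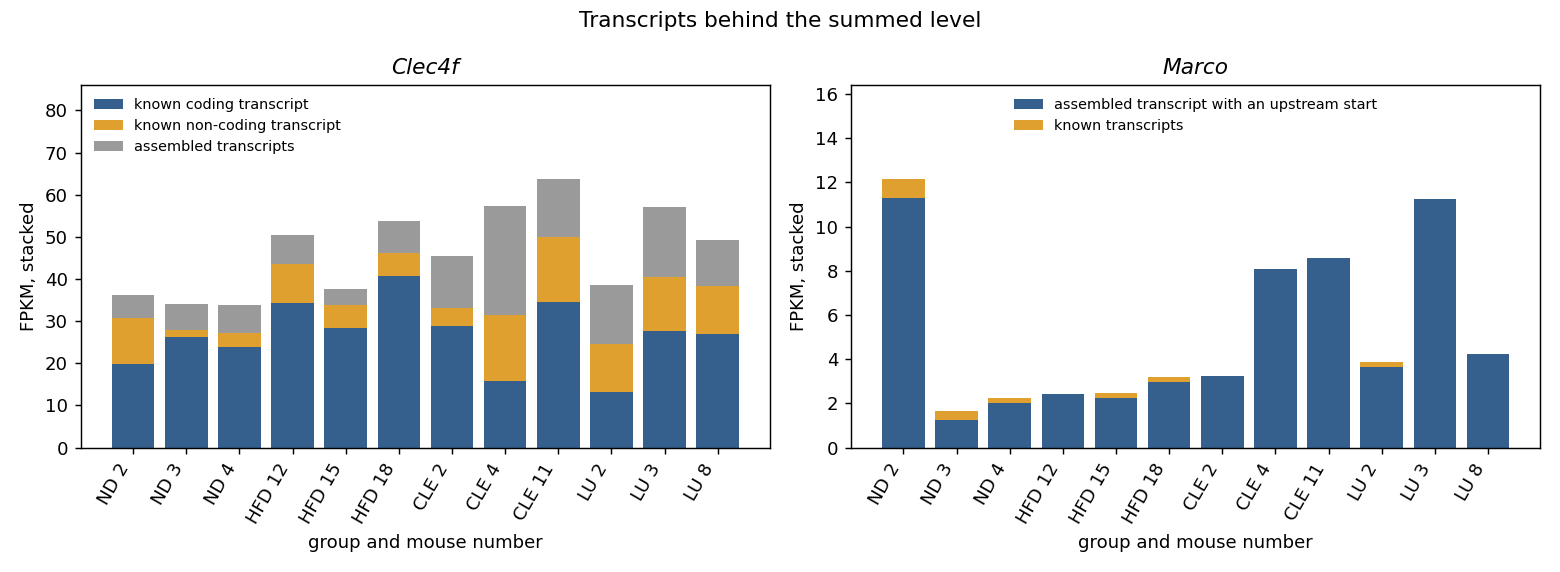
Level of the transcripts behind the sums of Clec4f and Marco in FPKM (stacked bars, linear axis from 0), 1 bar per liver. The Marco bars hold its main assembled transcript and its known transcripts. Its other assembled transcripts, at most 0.74 FPKM (LU mouse 3), are not drawn. For Clec4f the assembled transcripts take between 10.8 and 25.8 FPKM in CLE and LU livers, and for Marco most of each bar is 1 assembled transcript.

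Adgre1 encodes F4/80, the surface protein used to count mouse macrophages. It is on chromosome 17, positions 57358691 to 57483527. It was at 4.56, 3.84 and 4.10 FPKM in ND, 5.10, 5.55 and 6.86 in HFD, 5.49, 2.14 and 2.99 in CLE, and 3.03, 5.89 and 3.93 in LU. The HFD livers were above the ND livers, and CLE mouse 4 was the lowest of all. The difference was 0.40 ± 0.24 in HFD against ND (adjusted p = 0.314) and -0.65 ± 0.24 in CLE against HFD (adjusted p = 0.102). Relative to Clec4f, Adgre1 was at 0.120 ± 0.0067 in ND and 0.125 ± 0.023 in HFD. In CLE it was at 0.121, 0.037 and 0.047, and in LU at 0.079, 0.103 and 0.080. These ratios use the summed level of Clec4f.

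Marco encodes a scavenger receptor of a subset of Kupffer cells. It lies on the minus strand of chromosome 1, positions 120474538 to 120505024. It was at 12.2, 1.68 and 2.24 FPKM in ND, 2.43, 2.47 and 3.20 in HFD, 3.33, 8.41 and 8.57 in CLE, and 3.89, 12.0 and 4.23 in LU. The 3 HFD livers were below all CLE and LU livers, and ND mouse 2 was the highest of the 12. The differences were 0.99 ± 0.53 in CLE against HFD (adjusted p = 0.23) and 0.91 ± 0.53 in LU against HFD (adjusted p = 0.341). Against ND, Marco was lower in HFD by a log2 fold change of -0.40 ± 0.53 (adjusted p = 0.686), which became 0.32 without ND mouse 2. Of the Marco level, 74.6% to 100% in each liver came from 1 assembled transcript that starts at position 120522856, which is 17832 bases upstream of the annotated start in a stretch where GENCODE M21 has no other gene.

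Cd14 encodes the co-receptor that passes endotoxin to the TLR4 complex. It is on chromosome 18, positions 36725067 to 36726798. It was at 1.99, 1.16 and 1.39 FPKM in ND, 1.79, 1.43 and 2.70 in HFD, 3.44, 2.43 and 1.74 in CLE, and 1.09, 2.0 and 2.42 in LU. The groups overlapped throughout, and the difference between HFD and ND was 0.23 ± 0.23 (adjusted p = 0.551).

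**Figure D4:**
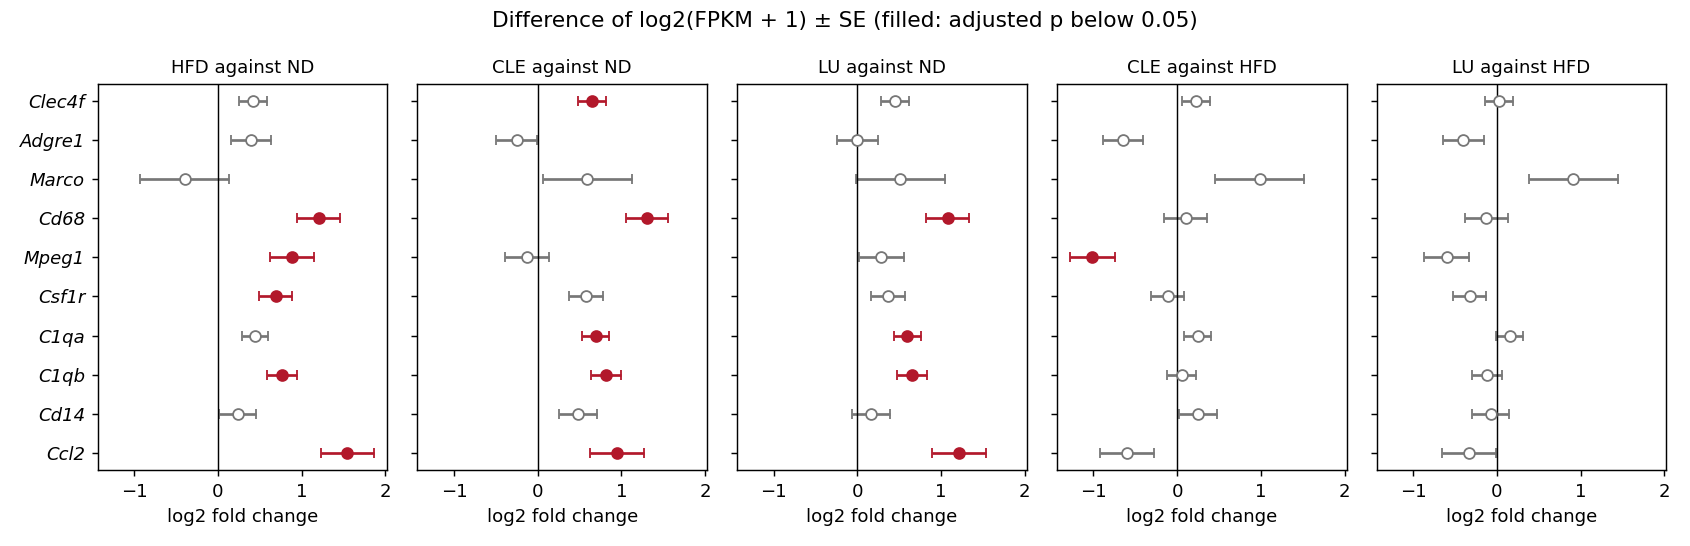
Differences in log2(FPKM + 1) between groups for the 10 genes, with SE from limma. Filled red points have an adjusted p below 0.05, in 5 genes for HFD against ND, 5 for CLE against ND, 4 for LU against ND, 1 for CLE against HFD and 0 for LU against HFD.

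Between LU and HFD livers 0 of the 10 genes were called by limma, where 1.03% of all tested genes were called. At an unadjusted p below 0.05 it was 1 of the 10 (Mpeg1, -0.60 ± 0.27, adjusted p = 0.235) and 20.3% of all tested genes. No gene was called in any alternative setting of this comparison. The 95% intervals of the differences ran from -1.18 to -0.02 for Mpeg1, from -0.68 to 0.43 for Cd68, from -0.50 to 0.27 for C1qb and from -1.03 to 0.36 for Ccl2, so changes of this size in either direction cannot be set aside for the last 3. In CLE livers the intervals against HFD were -0.45 to 0.66 for Cd68, -0.33 to 0.44 for C1qb and -1.29 to 0.10 for Ccl2. Mpeg1 and Marco in CLE and LU livers did not overlap HFD livers, and neither did C1qa in CLE livers. Over all tested genes, 16.3% lay above and 15% below HFD without overlap in CLE, and 13.1% above and 16.9% below in LU.

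Between CLE and LU livers 0 of the 10 genes were called by limma, where 0.00865% of all tested genes were called. At an unadjusted p below 0.05 it was 0 of the 10 and 4.39% of all tested genes. The 95% interval for Mpeg1 was -0.99 to 0.17 and for Cd68 -0.32 to 0.78. Against ND, 5 genes were higher in CLE (Cd68, C1qb, C1qa, Clec4f and Ccl2), where 27% of all tested genes passed and 20.9% passed as higher, and 4 were higher in LU (Cd68, C1qa, C1qb and Ccl2), where 14.9% passed and 11.2% passed as higher. These comparisons share the ND livers with that of HFD. In CLE 6 of the 10 genes lay above ND without overlap, and in LU 5, beside 32.2% and 29.4% of all tested genes. With median-of-ratios scaling 3 of the genes were called in CLE and 2 in LU, and over all genes the higher and lower calls went from 2416 and 703 to 1219 and 1618 in CLE and from 1290 and 437 to 709 and 1032 in LU. In CLE the count was 3 without ND mouse 4 or CLE mouse 11. In LU the count was 0 without ND mouse 2, ND mouse 4, LU mouse 3 or LU mouse 8, and 1 without ND mouse 3. Among the 4 groups the moderated F test called 5 genes (Cd68, C1qb, Ccl2, C1qa and Mpeg1), where 24.4% of all tested genes passed. The count was 1 when ND mouse 2, ND mouse 3 or ND mouse 4 was left out.

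CLE mouse 4, with the lowest Mpeg1, Adgre1 and Ccl2 of the livers on the HFD, and LU mouse 2, with the lowest Cd68 and Csf1r of them, stood apart from their groups. In CLE and LU libraries the correlation of a gene's GC content with its deviation from the mean library (Spearman, across 11413 genes) was between 0.16 and 0.479, highest in CLE mouse 4, and in ND and HFD libraries between -0.374 and -0.141. This difference cannot be told apart from the additives. With CLE mouse 4 and ND mouse 2 left out, a setting chosen after the values were seen, 4 genes were called between HFD and ND, 4 between CLE and ND, 4 between LU and ND and 0 between CLE and HFD.

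Other macrophage genes were counted by lists, whose counts in HFD against ND stand beside the 9.99% of all tested genes that were called higher and the 12.1% called in either direction. Counts and differences of all lists are given for the values as deposited only. On that scale 1156 genes were higher and 244 lower in HFD, against 620 and 504 with median-of-ratios scaling. Of 13 tested genes of Kupffer cell identity, 5 rose in HFD against ND and 1 fell. Folr2, a folate receptor gene of resident macrophages, rose by 0.98 ± 0.15 (adjusted p = 0.00168). Hmox1, for heme oxygenase 1, rose by 0.80 ± 0.14 (adjusted p = 0.0027), and Cd5l, for a secreted protein of tissue macrophages, by 1.14 ± 0.23 (adjusted p = 0.00719). Vsig4, for a complement receptor of Kupffer cells, rose by 0.92 ± 0.19 (adjusted p = 0.00786). The gene that fell was C6, a terminal complement component also made by hepatocytes. Among those not called were Timd4 (0.13 ± 0.16, adjusted p = 0.656), Fcna (0.09 ± 0.19, adjusted p = 0.819) and Cd163 (-0.435 ± 0.15, adjusted p = 0.0776). The median of the list was 0.55, beside 0.11 for all tested genes.

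Of 21 tested general macrophage and myeloid genes 7 rose in HFD and 0 fell, with a median of 0.64. Among them were Fcer1g, the signalling chain of Fc receptors (0.95 ± 0.20, adjusted p = 0.0103) and Lgmn, a lysosomal protease (0.80 ± 0.19, adjusted p = 0.0163). Of 13 genes of lipid-associated macrophages 4 rose and 1 fell. Lpl, for lipoprotein lipase, rose by 2.0 ± 0.19 (adjusted p = 6.05e-05), and Lgals3, for galectin-3, by 1.08 ± 0.27 (adjusted p = 0.0222). Ctsb, for cathepsin B, rose by 0.63 ± 0.13 (adjusted p = 0.00889), and Fabp5, a fatty acid binding protein, had a difference of -3.24 ± 0.47 (adjusted p = 0.000961).

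Of 14 tested genes of monocyte recruitment and inflammatory ligands 3 rose and 0 fell. Cxcl1, for a neutrophil-attracting chemokine, rose by 1.99 ± 0.33 (adjusted p = 0.00233), and Ccl6 and Ccl24 rose by 0.87 ± 0.21 (adjusted p = 0.0169) and 0.67 ± 0.19 (adjusted p = 0.0336). Of 11 genes of endotoxin sensing, a list that does not hold Cd14, 4 rose and 0 fell. They were the adaptor gene Ticam1 (0.64 ± 0.16, adjusted p = 0.0209), the receptor gene Tlr2 (0.68 ± 0.19, adjusted p = 0.0327), the TLR4 partner gene Ly96 (0.76 ± 0.21, adjusted p = 0.0349) and the feedback inhibitor gene Tnfaip3 (0.54 ± 0.15, adjusted p = 0.0369). Of 7 genes of the CSF1 receptor axis 1 was called, a share near that of all tested genes. It was Zeb2, a transcription factor gene (0.59 ± 0.17, adjusted p = 0.0421).

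Between CLE and HFD, Slc40a1, for the iron exporter ferroportin, was lower among the Kupffer cell list (-0.64 ± 0.13, adjusted p = 0.0266), and 0 genes of the other macrophage lists were called. This 1 of 13 stands beside 6.03% of all tested genes. Slc40a1 was at 62.1, 63.1 and 64.9 FPKM in HFD and at 46.3, 39.0 and 35.9 FPKM in CLE. Between LU and HFD limma called 0 genes in each of these 6 lists, with between 0 and 3 per list at an unadjusted p below 0.05, which 20.3% of all tested genes passed.

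Markers of other cells were followed beside these results. The summed level of 11 stellate cell markers was 143 to 196 FPKM in ND livers, 232 to 316 in HFD, 249 to 338 in CLE and 254 to 291 in LU, and 7 of them rose in HFD. The sum of 10 sinusoidal endothelial markers was 137 to 164 FPKM in ND, 164 to 180 in HFD, 192 to 232 in CLE and 168 to 246 in LU. In HFD against ND 1 of the 10 (Stab2) was called, a share near the 9.99% of all tested genes. Between CLE and HFD, the endothelial gene Eng (0.56 ± 0.14, adjusted p = 0.0428) and the stellate gene Des (0.44 ± 0.12, adjusted p = 0.0478) were higher in CLE, where Mpeg1 was lower. The sum of the neutrophil list was 2.39 to 3.87 FPKM in ND, 4.60 to 7.89 in HFD, 8.22 to 13.5 in CLE and 3.29 to 9.58 in LU. The LU range overlapped those of the other groups. Of its 8 genes 2 could be tested, 0 were called in HFD, and its defining marker Ly6g was listed at 0 in all 12 livers. Against ND, both tested neutrophil genes (S100a8 and S100a9) were called higher in CLE, as were 7 of 11 stellate and 5 of 10 sinusoidal markers, beside 20.9% of all tested genes. In LU it was 6 and 4 of these and 0 neutrophil genes, beside 11.2% of all tested genes. The haemoglobin genes Hba-a1 and Hba-a2 were called higher against ND in both CLE and LU. In HFD against ND they were not called, at 0.73 ± 0.28 (adjusted p = 0.108) and 0.84 ± 0.26 (adjusted p = 0.0529). Between CLE and HFD neither was called (adjusted p = 0.416 and 0.552). Alas2, the other tested gene of the red blood cell list, was not called against ND in any group. In LU livers the adipocyte gene Adipoq was at 0.50 to 0.76 FPKM and was at most 0.14 FPKM in the other 9 livers. Its mean of 0.18 FPKM was below the filter, so it was not tested. Of the rest of that list, Plin1 and Lep were also highest in LU livers, at means of 0.23 and 0.17 FPKM. Retn overlapped between CLE and LU livers. Car3, the only tested gene, was at 1199 ± 611 FPKM in LU and 1684 ± 259 FPKM in HFD (SD, n = 3). The part of these cells in the results on the macrophage genes was not tested.

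Over the 12 livers, the genes whose z scores followed the mean z score of the 10 genes most closely were C1qc (Pearson r = 0.953), the third C1q chain, Ap1s2 (0.949), a subunit of an adaptor complex of vesicle traffic, Cd5l (0.946), Tyrobp (0.946), the adaptor of myeloid receptors, and Cd300lb (0.945), a myeloid receptor. The points are 12 livers in 4 groups that differ in level, so the likeness includes the difference between diets. The mean z score was between -1.08 and -0.65 in ND, -0.06 and 0.81 in HFD, -0.29 and 0.74 in CLE, and -0.71 and 0.93 in LU.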

How the data were processed

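RNA of 12 livers was measured, and the sample labels gave the group of each (ND, HFD, CLE or LU, 3 mice per group). Per the submitters' processing notes, CASAVA 1.8.2, Bowtie2 2.2.3, TopHat2 2.0.12 and Cufflinks 2.2.1 were used. The authors deposited FPKM values per transcript, and whether these include the DEGES and edgeR factors that the methods name is not given in the sources used here, nor is the genome build. Of the known transcripts, 85.5% have the coordinates of GENCODE M21 on GRCm38, which was used for positions. Cufflinks shares fragments out among transcripts, so library depth and counting error are unknown, and 0 may stand for an estimate that failed. Values were summed by gene name over 145894 named transcripts, and 6316 transcripts without a name were left out.

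The test was that of limma 3.58.1 in R 4.3.3 (variance trend, all 12 mice in 1 fit) on log2(FPKM + 1), a scale that understates changes of low genes, with Benjamini-Hochberg adjustment over 11566 genes (mean FPKM of 0.5 or more), at 0.05. A test of 3 against 3 mice by exact permutation cannot go below p = 0.1, so none was used. The fit was tested on simulated data. Each mouse is 1 replicate. The members, lists and tests were chosen with earlier results of these data known, so no list is independent evidence. Named were all 10 members, at most 4 genes a list with the smallest adjusted p in a comparison, and the 5 genes most like the members' mean. Of these, 1 gene is not reported here. C6, Timd4, Fcna, Cd163, Ly6g, Adipoq, Plin1, Lep, Retn, Alas2 and the C1qb to C1qa ratio were chosen after their values were seen. Alternatives were a pseudocount of 0.1, no filter, a filter at a mean of 5 FPKM, scaling by median of ratios, quantile normalization, 2 groups alone, a fit without trend, the top transcript by mean in place of the sum, transcripts on the opposite strand, in introns or with no reference left out, a GC correction, each mouse left out, and the mouse number as a block. Python 3.11.15 with pandas 2.3.3 and matplotlib 3.10.9 was used for the sums and plots. Lists of B cell (3 tested), T and NK cell (6), cholangiocyte (3), hepatocyte (10), adipocyte (1) and red blood cell (3) markers were also counted. In HFD against ND only Cd4 (lower) and Car3 (higher) of these were called, and in CLE against HFD only Apoa1 (higher). In CLE against ND it was Hba-a1, Hba-a2 and Sox9 (higher) and Cps1 and Fgb (lower), in LU against ND Hba-a1, Hba-a2 and Cyp2e1 (higher) and Cps1 (lower), and in LU against HFD and CLE against LU none.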

Additional observations from a re-analysis of the deposited data

How the results depend on the processing

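Of 895 values of single genes under alternative settings, 768 kept their direction and their side of the threshold, 102 lost the call, 4 gained it and 21 changed sign. In no alternative did a difference that was called change sign.

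The count between HFD and ND (5) was 3 with no filter, with median-of-ratios scaling, with quantile normalization and with the transcript of highest mean, and 2 with the GC correction. Leaving out 1 mouse gave 2 to 6. Between CLE and HFD (1) it was 0 with no filter, the transcript of highest mean, the GC correction, the 2 groups alone, and with CLE mouse 4 and ND mouse 2 left out, and leaving out 1 mouse gave 0 to 2. The call stayed only without LU mouse 3 and, as 1 of 2, without CLE mouse 2. Between CLE and ND (5) it was 3 with median-of-ratios scaling and the transcript of highest mean and 2 with the GC correction, and leaving out 1 mouse gave 3 to 6. Between LU and ND (4) it was 2 with no filter, median-of-ratios scaling, quantile normalization, the transcript of highest mean and the GC correction, and leaving out 1 mouse gave 0 to 4. Among the 4 groups (5) it was 2 with no filter and the GC correction, and 3 with median-of-ratios scaling, quantile normalization and the transcript of highest mean, and leaving out 1 mouse gave 1 to 7. The cause was not tested.

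Mouse numbers are shared by ND and CLE mice and by ND and LU mice. Their deviations from the group means correlated at between -0.259 and 0.183. With so few mice these values cannot decide whether the number pairs the samples. With the replicate block, which uses only the mice that share a number, 2 genes were called between CLE and ND and 1 between LU and ND. A fit of the same 4 mice without the block, added after seeing the data, called 0 in each by limma. At an unadjusted p below 0.05 it was 5 and 4. Both fits hold fewer mice and only the groups compared, and the cause of the lower counts than with all mice was not tested. Over all tested genes, 1078 were called with the block and 178 without it between CLE and ND. Between LU and ND it was 956 and 321. Whether mice with the same number belong together was not tested. HFD mice share no number with other groups.

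The 21 changes of sign all concern differences that were not called. With the transcript of highest mean, CLE against HFD became -0.11 for Cd68 and -0.43 for Clec4f, and LU against HFD -0.64 for Clec4f. With the GC correction, CLE against HFD became -0.023 for C1qa and -0.15 for C1qb, and LU against HFD -0.015 for C1qa. With CLE mouse 4 and ND mouse 2 left out, CLE against HFD became 0.087 for Csf1r, and HFD against ND 0.32 for Marco. Leaving out 1 mouse gave ranges across 0. For HFD against ND it was -0.83 to 0.32 for Marco. For CLE against HFD it was -0.13 to 0.42 for Cd68, -0.27 to 0.087 for Csf1r and -0.11 to 0.19 for C1qb. For LU against HFD it was -0.26 to 0.13 for Cd68, -0.13 to 0.17 for Clec4f, -0.012 to 0.32 for C1qa, -0.27 to 0.049 for C1qb and -0.23 to 0.13 for Cd14.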
